A study of Mus musculus with 24 samples.

Results

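The 10 genes described here make up the core of the circadian clock and its best known output: Arntl (also called Bmal1), Clock, Per1, Per2, Per3, Cry1, Cry2, Nr1d1, Nr1d2 and Dbp. They were chosen by name, and all 10 were found among the 52178 genes of the count table. All 10 also passed the filter on low counts and were among the 21283 genes tested.

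The circadian clock is a transcriptional feedback loop that runs in most mammalian cells, chondrocytes among them. ARNTL and CLOCK bind E-boxes as a pair and activate the Per and Cry genes, whose proteins then return to the nucleus and block their own activators. Nr1d1 and Nr1d2, which encode the nuclear receptors REV-ERB alpha and beta, are activated by the same pair and repress Arntl, while ROR receptors compete for the same sites and activate it. DBP is an output factor that carries the rhythm to other genes through D-boxes. Cartilage has a working clock of its own, and deleting Arntl in chondrocytes is known to damage the tissue.

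RNA sequencing was performed on 24 libraries in 6 groups of 4. Hip caps, the articular cartilage caps of the femoral head, came from male mice aged 4 weeks, with the 2 caps of a mouse pooled per library. Metatarsals, growth plate rudiments, came from embryos of day 15 whose sex is not given, with 6 pooled per library. The strain of both is C57/BL6 in the labels and C57/BL6J in the study's methods. Both were held for 24 hours in culture, exposed for 1 hour to no added pressure (control), 5 MPa (termed physiological) or 50 MPa (termed injurious), and cultured for 24 hours more. Both are wild-type explants, and the culture media of the tissues were not the same, so tissue, age, sex and medium cannot be told apart here. Each explant was sampled at 1 time after pressure, and the hour of the day is not given in the sources used here, so a difference in the phase of a rhythm and a difference in its mean level cannot be told apart either.

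Total counts ranged from 4185241 to 25104240 per library. The study left out control hip cap replicate 4 and 50 MPa hip cap replicate 2 as outliers, and the fits below use the other 22 libraries. Those 2 libraries had the lowest levels of Clock, Per1, Per3, Cry2, Nr1d1, Nr1d2 and Dbp among the hip caps. Results with them are therefore given where a call depends on leaving them out. Chondrocyte markers were higher in hip caps for 8 of 8 genes at every pressure, with a summed level of 21300 to 69500 CPM (counts scaled to a library total of 1000000) in hip caps against 1410 to 3790 in metatarsals. Skeletal muscle markers summed to 22.6 to 50.0 CPM in hip caps and 388 to 2300 in metatarsals, and osteoclast markers to 126 to 731 and 25.1 to 45.7. Within hip caps, chondrocyte markers summed to 43900 to 69500 CPM in controls, 21300 to 50400 at 5 MPa and 29600 to 33300 at 50 MPa. Osteoclast markers there summed to 126 to 228, 229 to 705 and 231 to 731 CPM. The part of these other cells in the clock gene values was not tested, and in bulk tissue fewer cells of a type and less RNA per cell cannot be told apart.

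Hip caps and metatarsals were first compared without pressure, to ask how the clock genes differ between a stable and a transient cartilage. In all, 7 members rose in control hip caps and none fell, led by Nr1d1 and Dbp, the repressor and the output arms of the loop. Clock, Per1 and Cry1 did not pass the test. The 7 called stand beside 29.9% of all genes tested that were called in this comparison, 14.1% in the direction of hip caps. The median log2 fold change over the 10 members was 1.34, against -0.08 over all genes tested. With library sizes in place of the scaling used here, the median gene moved by -0.89 on the log2 scale, and 2 members (Nr1d1 and Dbp) were then called higher in hip caps and 3 (Clock, Per1 and Cry1) lower. The share of all genes called under that scaling is not given here. Calls are at an adjusted p of at most 0.05 in edgeR's quasi-likelihood test, with sequencing run and library type as further terms.

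The values are CPM scaled by TMM, a normalization that sets the bulk of genes equal between libraries. The control values of 7 members (Arntl, Per2, Per3, Nr1d1, Nr1d2, Dbp and, in controls only, Cry2) did not overlap between tissues. The share of all genes that stood apart in controls alone was not computed, so this count has no background beside it. Over all pressures, 6 members (the same without Cry2) were higher in each of the 10 hip cap libraries than in any of the 12 metatarsal libraries. Of all genes tested, 8.44% stood apart in this way in the direction of hip caps and 7.63% in the other direction, where no member did. With the left-out hip caps added, 2 members, Nr1d1 and Dbp, still stood apart over all pressures, and in controls Per2, Per3, Cry2 and Nr1d2 overlapped.

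**Figure D1:**
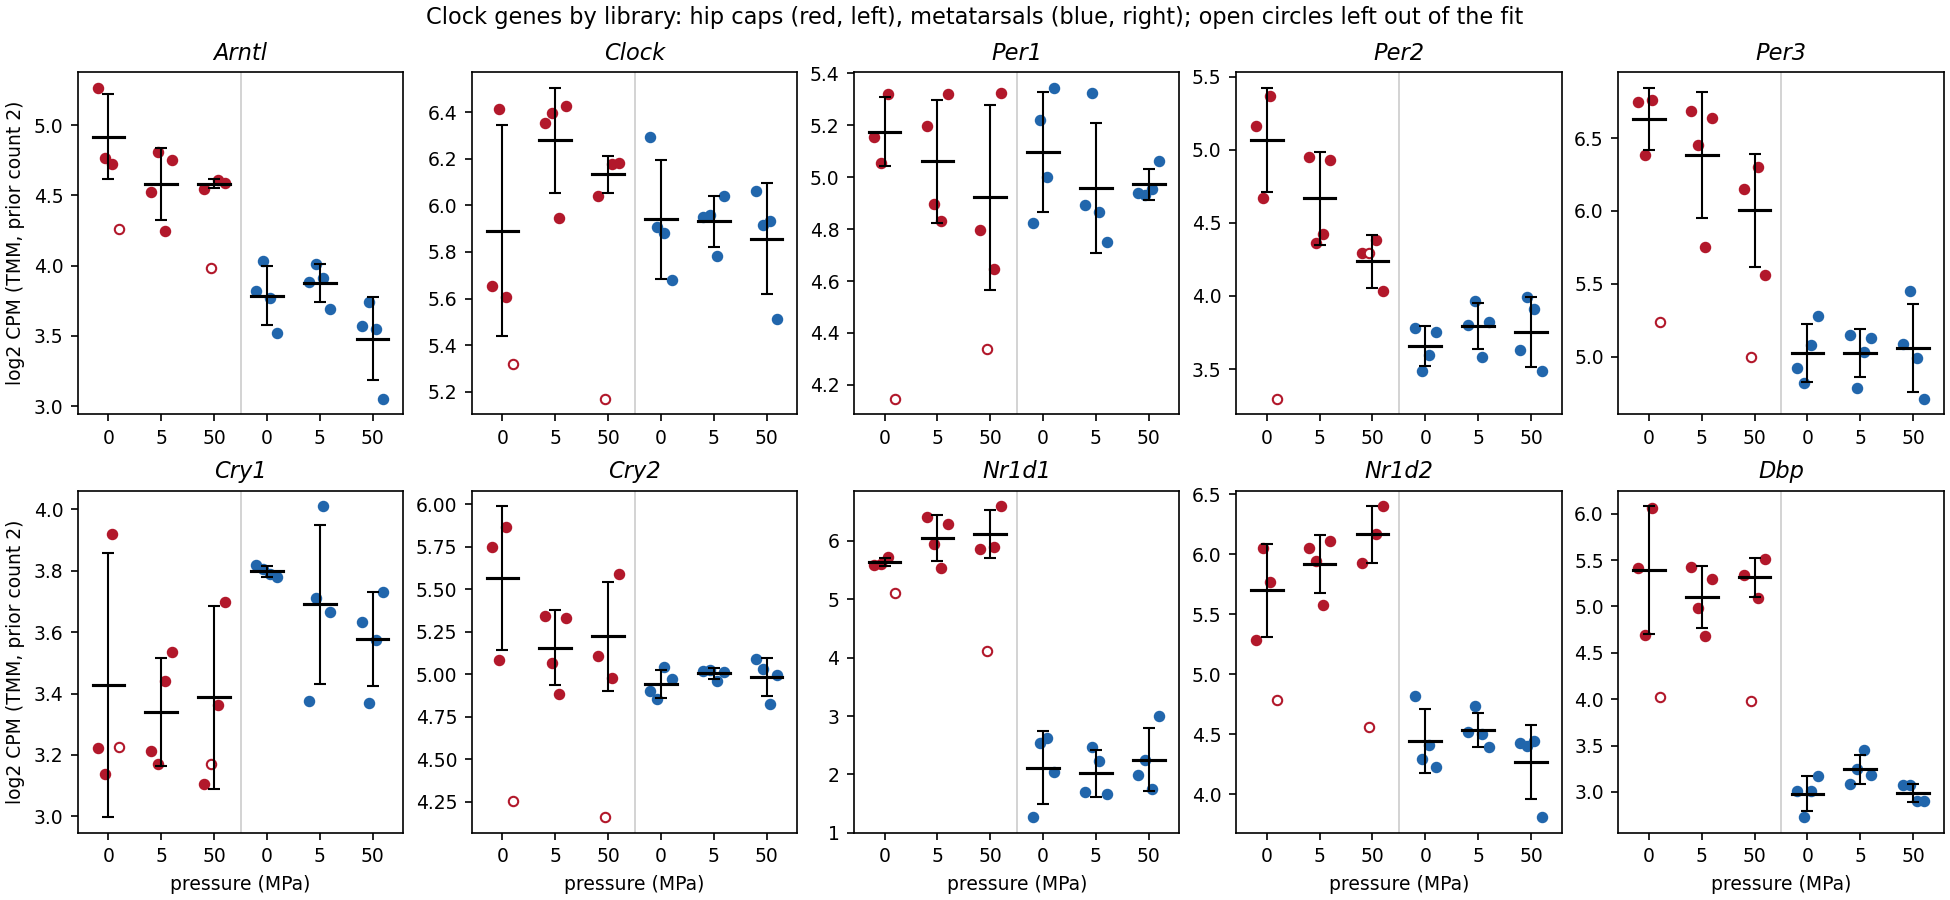
Level of each clock gene in each library on the log2 CPM scale (prior count of 2), by pressure in MPa, with hip caps in red and metatarsals in blue. Bars are the mean and SD of the libraries used in the fit, and open circles are the 2 hip cap libraries left out of it. Nr1d1 sits between 46.0 and 96.2 CPM in the hip caps used and between 2.27 and 7.87 CPM in metatarsals.

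Nr1d1, the haem-sensing repressor of Arntl, had the largest tissue difference of the 10. In control hip caps it stood at 48.1, 48.7 and 52.7 CPM. In control metatarsals it stood at 2.27, 5.70, 6.02 and 3.96 CPM. Every control hip cap was thus above every control metatarsal, a log2 fold change of 3.33 (SE 0.46, edgeR adjusted p = 2.21e-05) or 10.1-fold with a 95% interval of 5.16 to 19.7. Control metatarsal replicate 1, at 2.27 CPM, was the only control metatarsal of run 1, as all control hip caps used were. Without it the log2 fold change of Nr1d1 was 2.32, and that of Dbp, Per2 and Nr1d2 was 3.23, 2.13 and 2.08, all past the threshold. Without control hip cap replicate 3, the unstranded one, Nr1d1 stood at 4.42, Dbp at 2.10 and Per2 at 1.17, again past it.

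At 5 MPa the tissues are best matched, since all 8 of these libraries were stranded and, as far as the run could be read, from the same sequencing run. There Nr1d1 was at 85.2, 61.8, 46.0 and 78.0 CPM in hip caps. In metatarsals at 5 MPa it was at 3.11, 5.39, 4.56 and 3.05 CPM. The lowest hip cap again exceeded the highest metatarsal, with a 16.0-fold difference (10.5 to 24.6, log2 fold change 4.00, SE 0.29, edgeR adjusted p = 3.09e-09). In a fit of the stranded libraries of that run alone, the log2 fold change was 4.08.

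At 50 MPa Nr1d1 measured 58.2, 59.2 and 96.2 CPM in the hip caps used. The metatarsals at that pressure measured 3.82, 4.63, 3.25 and 7.87 CPM. The difference was 11.9-fold (6.25 to 22.6, edgeR adjusted p = 9.08e-06). The highest metatarsal value, 7.87, came from the only unstranded metatarsal library. Nr1d1 shares 263 exon bases, 8.55% of its own, with Thra on the opposite strand, and the fitted coefficient of an unstranded library for Nr1d1 was 0.66 on the log2 scale. Whether reads were counted by strand is not given, so reads of Nr1d1 and Thra in that overlap may not be told apart in stranded libraries either.

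Its paralogue Nr1d2 rose less. Control hip caps held 38.9, 66.2 and 54.4 CPM of Nr1d2, and control metatarsals 28.2, 19.5, 21.2 and 18.6 CPM. The log2 fold change was 1.34 (SE 0.25, edgeR adjusted p = 0.000348) in controls, 1.32 (SE 0.17) at 5 MPa and 2.10 (SE 0.29) at 50 MPa, all past the threshold. Per kilobase of the longest transcript, Nr1d1 lay below Nr1d2 in all 12 metatarsal libraries, with log2 ratios from -2.78 to -0.03. In the 10 hip caps used it lay above Nr1d2, with log2 ratios from 0.34 to 1.14.

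Dbp, the D-box binding output factor, was at 42.5, 25.7 and 66.9 CPM in control hip caps and at 7.94, 6.48, 7.90 and 8.89 CPM in control metatarsals. The hip cap values spread widely, yet the lowest of them was well above the highest metatarsal. Dbp was 5.93-fold higher in control hip caps (3.85 to 9.13, edgeR adjusted p = 1.59e-06), 3.52-fold at 5 MPa (2.67 to 4.65) and 4.55-fold at 50 MPa (2.85 to 7.26). Dbp shares 18.0% of its exon bases with Sphk2 on the opposite strand. Its highest control value, 66.9 CPM, was in the unstranded control library. At 5 MPa, where all libraries were stranded, hip caps ranged from 25.6 to 43.0 CPM and metatarsals from 8.38 to 10.8, though with the strand setting of the counting not given the reads of Dbp and Sphk2 may not be told apart there either.

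Arntl, the activator without which the loop stops, was higher in hip caps as well. Its control levels were 38.3, 27.1 and 26.3 CPM in hip caps and 14.0, 16.2, 13.5 and 11.4 CPM in metatarsals. These groups did not overlap, and the log2 fold change was 1.34 (SE 0.22, edgeR adjusted p = 8.28e-05). It was 0.65 (SE 0.14) at 5 MPa and 1.51 (SE 0.24) at 50 MPa, both past the threshold. Its partner Clock differed little between control tissues (log2 fold change -0.04, 95% interval -0.44 to 0.36) and spanned 48.6 to 85.8 CPM in hip caps and 45.5 to 78.3 in metatarsals.

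The 3 Per genes, which encode the repressors that bind CRY proteins, did not move together. Per3 was at 107.1, 83.4 and 108.5 CPM in control hip caps and at 30.3, 28.1, 33.7 and 38.7 in control metatarsals, a log2 fold change of 1.85 (SE 0.28, edgeR adjusted p = 3.04e-05). Per2 was at 35.7, 25.4 and 41.1 CPM in control hip caps and at 13.6, 11.1, 11.98 and 13.4 in control metatarsals, a log2 fold change of 1.54 (SE 0.25). The left-out control hip cap, at 9.69 CPM of Per2, lay below every control metatarsal, and with all 24 libraries the log2 fold change was 0.84 and not called (edgeR adjusted p = 0.0694). Per1 overlapped almost fully, at 33.1 to 39.8 CPM against 28.2 to 40.5, and the 95% interval of its log2 fold change in controls ran from -0.30 to 0.66.

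The Cry genes, which encode the strongest repressors of the loop, gave smaller and less stable differences. Cry2 was at 53.6, 33.7 and 58.2 CPM in control hip caps and 28.7 to 32.8 in control metatarsals. Its log2 fold change of 0.69 (SE 0.22, edgeR adjusted p = 0.0229) was 0.16 with adjusted p = 0.741 when all 24 libraries were fitted. Without control hip cap replicate 1 it was 0.50 (adjusted p = 0.104) and without replicate 3 it was 0.56 (adjusted p = 0.180). Without control metatarsal replicate 1 it was 0.90 (adjusted p = 0.0996), and without 50 MPa metatarsal replicate 4, which enters through the run and library type terms, it was 0.55 (adjusted p = 0.169). Cry1 was the one member on the metatarsal side at 5 MPa, at 8.87 to 11.5 CPM in hip caps and 10.2 to 16.0 in metatarsals. Its log2 fold change there was -0.43 (SE 0.16, edgeR adjusted p = 0.0334), and it passed the threshold in 16 of 33 alternative settings. With all 24 libraries Cry1 was not called at 5 MPa.

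At 5 MPa, 6 members rose in hip caps over metatarsals and 1, Cry1, fell, against 37.9% of all genes called and 18.8% of all genes in the direction of hip caps. At 50 MPa 5 members rose (Arntl, Per3, Nr1d1, Nr1d2 and Dbp) and none fell, against 19.7% of all genes called and 10.1% in that direction. The hip caps at 50 MPa were all unstranded, as was 1 metatarsal library at that pressure, replicate 4. Without replicate 4 only Nr1d1 passed the threshold at 50 MPa, with a log2 fold change of 5.25. With all 24 libraries Per3 lost its call at 50 MPa (0.66, adjusted p = 0.372).

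**Figure D2:**
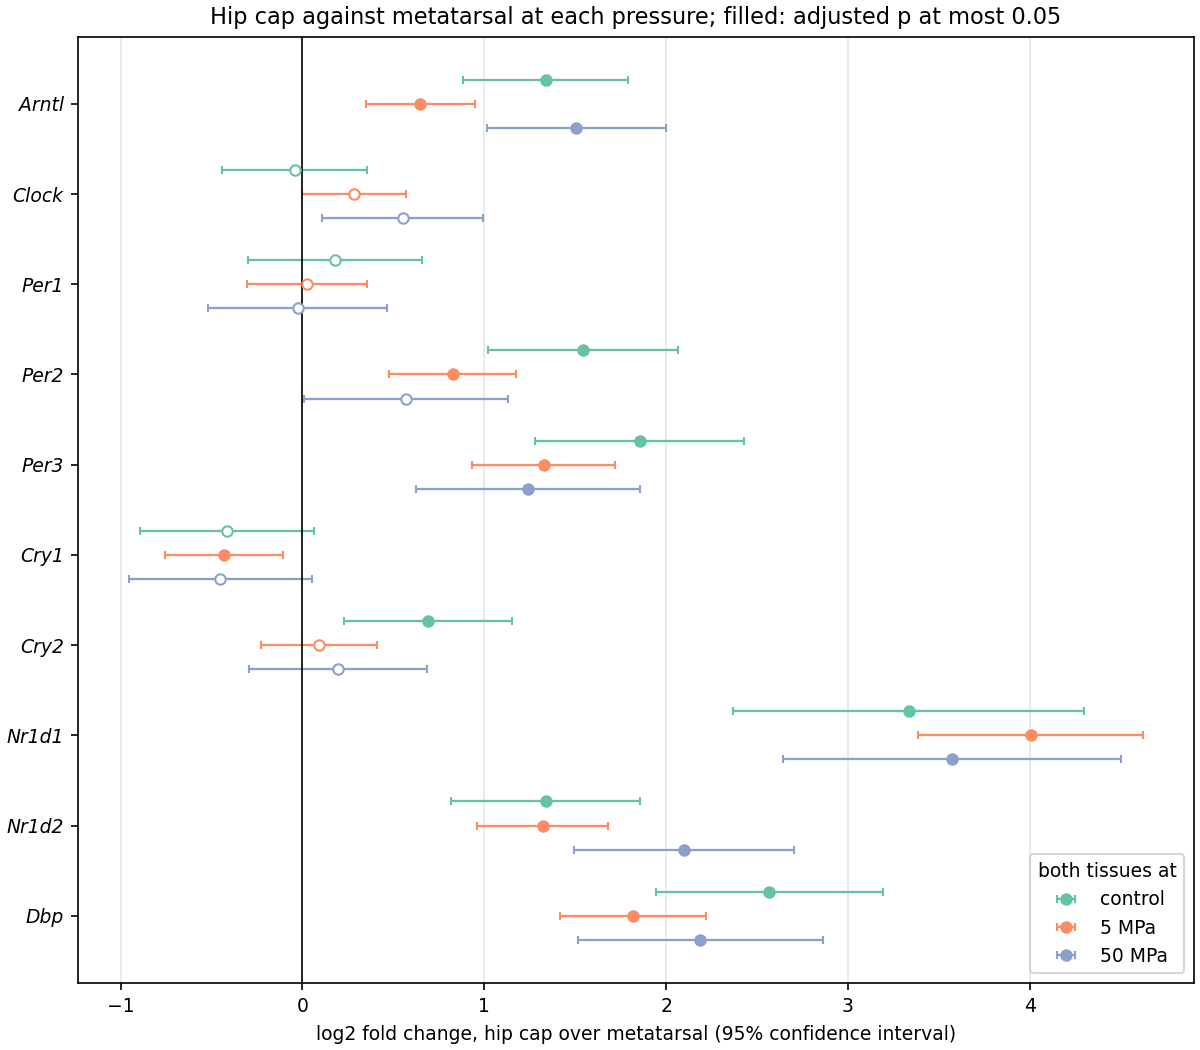
Log2 fold change of hip caps over metatarsals for each clock gene (horizontal axis, with 95% confidence interval) in controls, at 5 MPa and at 50 MPa. Filled points have an adjusted p of at most 0.05. Nr1d1 lies furthest to the right at every pressure (3.33, 4.00 and 3.57), while Per1 lies at 0.18, 0.03 and -0.03.

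The order of the members within a tissue was read per kilobase of the longest transcript, since longer transcripts collect more counts. In control hip caps Dbp (24.5 ± 11.3 CPM per kilobase, SD, n = 3), Nr1d1 (18.3 ± 0.9) and Per3 (16.6 ± 2.4) led, and their ranges of 1 SD overlapped. Cry1 was last at 3.62 ± 1.16. In control metatarsals Cry2 (7.70 ± 0.45, n = 4) and Per1 (7.37 ± 1.17) led, which did not differ beyond their spread, and Nr1d1 was last at 1.65 ± 0.64. By mean, Nr1d1 was thus second of 10 in control hip caps, first at 5 and 50 MPa, and last in metatarsals at all 3 pressures. In hip caps at 5 and 50 MPa its range of 1 SD overlapped that of Dbp. In metatarsals it overlapped that of Per2 in controls and at 50 MPa.

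For Arntl, Per2, Per3, Nr1d1, Nr1d2 and Dbp, the 3 hip cap groups were the 3 highest of the 6 groups by mean CPM, and the only gap in the order without overlap of neighbours was that between hip caps and metatarsals, save for a second gap for Dbp between metatarsals at 5 MPa and those at 50 MPa, all in the 22 libraries. For Clock, Per1, Cry1 and Cry2, every neighbouring pair of groups in the order overlapped.

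The balance between a member and Arntl within a library does not depend on the scaling between libraries, so these log2 ratios (CPM per kilobase) were compared as a description. Nr1d1 to Arntl averaged 1.28 ± 0.35 (SD, n = 3) in control hip caps, 2.02 ± 0.33 (n = 4) at 5 MPa and 2.09 ± 0.40 (n = 3) at 50 MPa. In metatarsals the means were -1.12 ± 0.61, -1.31 ± 0.30 and -0.68 ± 0.80 (n = 4 each). The hip cap libraries left out by the study had ratios of 1.40 and 0.69, still above every metatarsal, the highest of which was 0.50.

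Dbp to Arntl was also higher in hip caps (1.04 to 2.47) than in metatarsals (-0.19 to 0.97) in the 22 libraries, while the left-out control stood at 0.88, within the range of metatarsals, and the left-out 50 MPa library at 1.12. Per1 to Arntl ran the other way, from -0.34 to 0.51 in hip caps and from 0.73 to 1.78 in metatarsals, as did Cry1 to Arntl, from -1.64 to -0.40 and from -0.11 to 1.08. None of these 4 ratios overlapped between the tissues in the 22 libraries. Other ratios to Arntl did overlap. Nr1d2 to Arntl ran from -0.20 to 1.58 in hip caps and from 0.04 to 0.78 in metatarsals. For Per2 the ranges were -1.10 to 0.10 and -1.09 to -0.11, and for Per3 0.38 to 1.58 and 0.19 to 1.17. How many of all genes stand apart in their ratio to Arntl was not computed. Nr1d1, Dbp, Per1 and Cry1 thus stood in different proportions to Arntl in the tissues, in the 22 libraries.

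**Figure D3:**
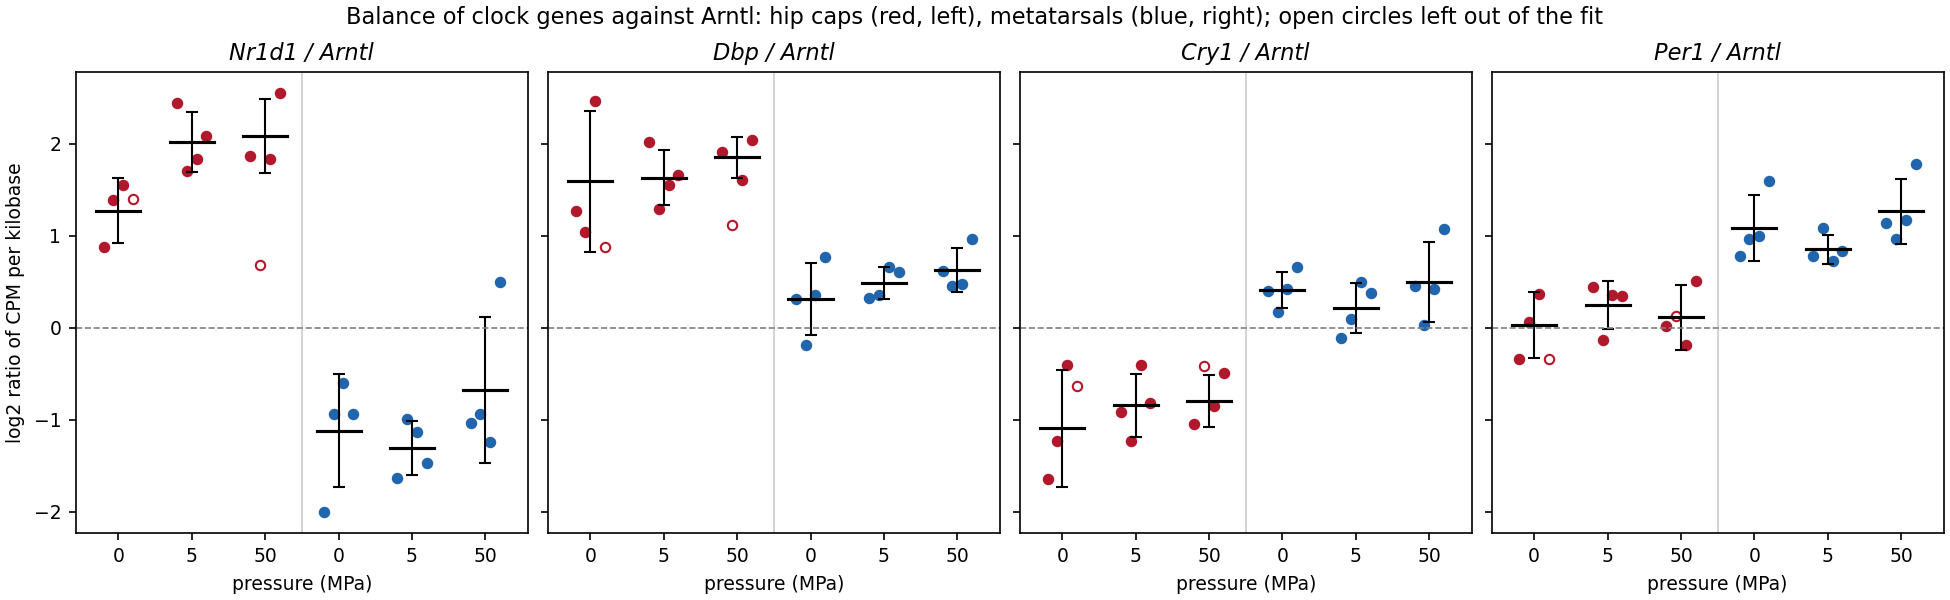
Log2 ratio of CPM per kilobase of Nr1d1, Dbp, Cry1 and Per1 to Arntl within each library, by pressure in MPa (hip caps in red, metatarsals in blue, mean and SD as bars, open circles left out of the fit). In the hip caps used Nr1d1 stands from 0.88 to 2.55 above Arntl, in those left out at 1.40 and 0.69, and in metatarsals it reaches at most 0.50.

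Upstream sequence was examined for elements through which the loop is known to act. RefSeq windows of 250 bases before to 50 after the start site (GRCm38.p6) were at hand for 9 of the 10 members, Per2 being without one, and gave 13 windows. They were searched on both strands for the E-box CACGTG, the E-box variant CACGTT, the D-box TTANGTAA, the ROR element ANTNGGTCA and the cAMP element TGACGTCA. The windows of 4 members are printed, of a pair that rose in control hip caps (Per3 and Nr1d1) and a pair that did not pass the test (Per1 and Cry1). As the pairs were picked by their calls, their motifs cannot bear on those calls. Each run is the 250 bases before the start, on the strand of the gene, with matches in capitals.
Per3 (chr4:151044666-151044915, minus strand): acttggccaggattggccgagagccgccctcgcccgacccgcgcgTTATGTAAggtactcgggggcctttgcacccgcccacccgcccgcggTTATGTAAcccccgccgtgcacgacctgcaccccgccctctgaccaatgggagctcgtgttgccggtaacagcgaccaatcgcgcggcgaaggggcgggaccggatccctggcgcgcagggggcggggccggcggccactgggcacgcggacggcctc
Nr1d1 (chr11:98775378-98775627, minus strand): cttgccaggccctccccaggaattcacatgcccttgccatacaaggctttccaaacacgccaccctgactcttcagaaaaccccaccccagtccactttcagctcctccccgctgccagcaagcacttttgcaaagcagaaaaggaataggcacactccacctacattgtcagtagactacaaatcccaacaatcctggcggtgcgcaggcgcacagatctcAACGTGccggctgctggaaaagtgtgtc
Per1 (chr11:69098699-69098948, plus strand): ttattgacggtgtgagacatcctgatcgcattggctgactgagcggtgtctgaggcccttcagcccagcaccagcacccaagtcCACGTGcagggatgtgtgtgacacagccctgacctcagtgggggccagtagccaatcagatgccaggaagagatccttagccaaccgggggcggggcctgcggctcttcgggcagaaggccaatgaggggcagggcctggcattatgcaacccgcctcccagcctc
Cry1 (chr10:85185055-85185304, minus strand): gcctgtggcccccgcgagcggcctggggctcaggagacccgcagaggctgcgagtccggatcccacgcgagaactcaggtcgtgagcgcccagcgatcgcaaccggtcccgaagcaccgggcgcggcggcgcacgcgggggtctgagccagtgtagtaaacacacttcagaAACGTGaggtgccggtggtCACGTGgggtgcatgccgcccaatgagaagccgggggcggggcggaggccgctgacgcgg

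Per3 held a pair of D-boxes, at positions -205 and -158 from the start site, and was the only member with one. D-boxes were present in 2.32% of all 32851 windows and in 2.72% of the 27025 genes with a window. The E-box was found in 2 members, Per1 (at -166) and Cry1 (at -60). It was present in 7.15% of all windows and 8.09% of genes. The variant was found in Cry1 (-79), Nr1d1 (-28) and Cry2 (-166), and in 4.68% of windows and 5.44% of genes. The cAMP element was in no member window and in 1.79% of all windows.

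The ROR element, through which REV-ERB and ROR receptors act, was found in 1 member, Arntl, 28 bases past the first base of its second start site. It was present in 2.24% of windows and 2.56% of genes. The match with 10 bases on each side is shown because it is the element that links Nr1d1 to Arntl in the textbook loop.
Arntl (chr7:113207529-113207557, plus strand): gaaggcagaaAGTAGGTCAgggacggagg
The windows of Clock, Nr1d2 and Dbp held none of the 5 motifs, which says only that these letters are not in the windows. A member that rose could hold an E-box variant (Nr1d1), a D-box (Per3) or no match (Dbp, Nr1d2), and both members with the full E-box did not pass the test in controls. Per2 rose but had no window. A link between motifs and calls was not tested, and so few members could not show one.

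Other genes of the loop and its accessories were read from a list of 19, all of which were tested. In controls 3 rose in hip caps, 2 fell and 14 did not pass, with a list median of 0.15 against -0.08 over all genes. The 5 of 19 called stand beside 29.9% of all genes. Bhlhe41, the E-box repressor DEC2, stood at 177.7 to 196.6 CPM in control hip caps and 24.9 to 34.7 in control metatarsals (log2 fold change 2.70, edgeR adjusted p = 6.28e-07). It was called at 5 and 50 MPa as well. Usp2, a deubiquitinase under clock control, stood at 7.88 to 13.8 and 2.65 to 5.39 CPM (1.12, adjusted p = 0.0157).

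Hlf, a relative of Dbp that also binds D-boxes, went the other way, at 1.41 to 2.99 CPM in control hip caps and 4.09 to 6.50 in control metatarsals (log2 fold change -1.31, adjusted p = 0.00638). Csnk1e, a casein kinase that phosphorylates the PER proteins, fell as well, at 14.3 to 19.8 and 32.5 to 43.8 CPM (-1.03, adjusted p = 0.000215), while the control hip cap that the study left out stood at 45.3. Of those not past the threshold in controls, the largest values belonged to Ciart, a repressor of the ARNTL and CLOCK pair (-1.12, adjusted p = 0.0732), and Wee1, a cell cycle kinase with clock-driven transcription (-0.81, adjusted p = 0.0607). At 5 MPa 3 of the 19 rose and 4 fell, Ciart among the latter (-1.38, adjusted p = 0.00134), and at 50 MPa 3 rose and 1 fell. These 7 and 4 called stand beside 37.9% and 19.7% of all genes.

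**Figure D4:**
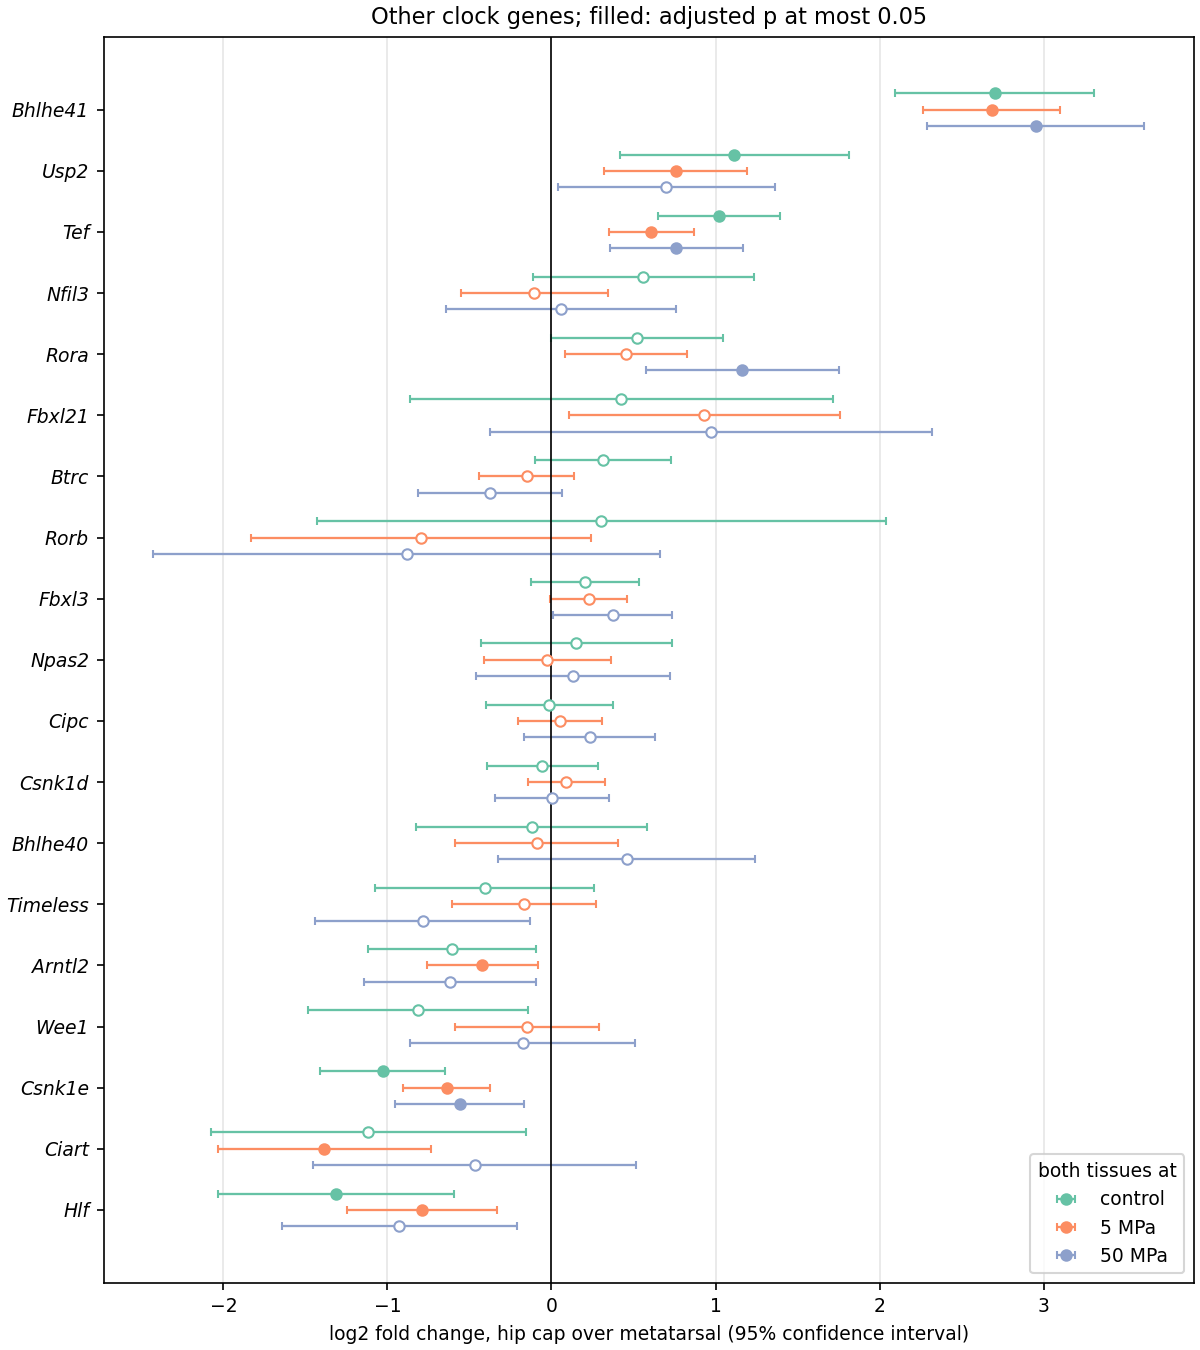
Log2 fold change of hip caps over metatarsals for the 19 other clock genes (horizontal axis, with 95% confidence interval), in controls, at 5 MPa and at 50 MPa, ordered by the control value. Filled points have an adjusted p of at most 0.05. Bhlhe41 stands apart on the right (2.70 in controls), and Hlf is lowest in controls (-1.31).

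Pressure was compared with control within each tissue next. In metatarsals no member passed the threshold at 5 MPa or at 50 MPa, where edgeR called 0% of all genes in either comparison. No member had an unadjusted p under 0.05 (0 by edgeR, and 0 called by DESeq2). The share of all genes called by DESeq2 in metatarsals is not given here. The log2 fold changes of the members ran from -0.26 to 0.20 at 5 MPa and from -0.34 to 0.10 at 50 MPa. The 95% intervals bound these differences closely for most members: at 50 MPa Clock lay between -0.22 and 0.39, Per1 between -0.55 and 0.15 and Arntl between -0.53 and 0.12. For Nr1d1, with 53 to 110 counts in 11 metatarsal libraries and 12 in control replicate 1, the interval at 50 MPa ran from -0.79 to 0.51.

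In hip caps at 5 MPa no member passed either, with 0.0188% of all genes called. Unadjusted p values were under 0.05 for 3 members by edgeR (Arntl, Per2 and Cry2), against 14.8% of all genes at that threshold. The log2 fold changes of the 3 were -0.62 (95% interval -1.12 to -0.12), -0.60 (-1.18 to -0.02) and -0.57 (-1.09 to -0.05). DESeq2 called 0 members, and its share of all genes called in this comparison is not given here. All the hip caps at 5 MPa came from sequencing run 2 and all the control hip caps used came from run 1, so in this tissue pressure and run are separated only through the metatarsals.

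At 50 MPa 1 member, Per2, fell in hip caps, against 5.18% of all genes called and 1.86% in the downward direction. Per2 stood at 35.7, 25.4 and 41.1 CPM in control hip caps, at 30.9, 20.4, 21.3 and 30.4 at 5 MPa, and at 19.5, 20.8 and 16.3 at 50 MPa. All 3 libraries at 50 MPa lay below all 3 controls, with the 5 MPa values between and overlapping both. The log2 fold change was -0.87 (SE 0.24, edgeR adjusted p = 0.0407), or 0.545-fold with a 95% interval of 0.386 to 0.771. In metatarsals Per2 stood at 12.2, 15.8, 14.9 and 11.1 CPM at 50 MPa and 11.1 to 13.6 in controls. The test of the difference between the tissues in this response gave -0.98 on the log2 scale with an adjusted p of 0.0842, so it was not called. It was called without control hip cap replicate 2 (-1.09, adjusted p = 0.0154) and without 5 MPa hip cap replicate 3 (-1.01, adjusted p = 0.0499), and the former also called Clock (0.71, adjusted p = 0.0489).

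The call for Per2 rests on a few libraries. The hip caps at 50 MPa were all unstranded, and of the controls used 1 was, replicate 3, which at 41.1 CPM had the highest Per2. Without it the log2 fold change was -0.11 (adjusted p = 0.974), and with all 24 libraries it was -0.57 (adjusted p = 0.402), where the left-out control had 9.69 CPM and the left-out 50 MPa library 19.5. The call also ended without any 1 of the 3 hip caps at 50 MPa (adjusted p from 0.0591 to 0.0658) and without control metatarsal replicate 3 or 4 (0.0516 and 0.0524). With library type as the only batch term it ended too (-0.82, adjusted p = 0.0580). With no batch terms, and with sequencing run as the only one, Per2 was still called. Within the unstranded libraries the values were 41.1 in the 1 control and 16.3 to 20.8 at 50 MPa, which was not tested with 1 control.

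In hip caps at 50 MPa unadjusted p values were under 0.05 for 5 members by edgeR, against 22.6% of all genes. They were Per2, Per3 and Cry2, with negative log2 fold changes, and Clock and Nr1d2, with positive ones. Clock stood at 65.7, 72.1 and 72.5 CPM against 50.2, 85.1 and 48.6 in controls, which overlap. Its log2 fold change was 0.68 (95% interval 0.25 to 1.11, edgeR adjusted p = 0.0593). The fitted coefficient of an unstranded library for Clock was -0.64, and with no batch terms the log2 fold change was 0.24. DESeq2 called Clock (adjusted p = 0.0177), with 13.4% of all genes called by DESeq2 in this comparison. Nr1d2 gave 0.70 (0.18 to 1.22, adjusted p = 0.100), while Nr1d1 gave 0.10 (-0.79 to 1.00). Per3 gave -0.56 (-1.12 to -0.01, edgeR adjusted p = 0.212) and Cry2 -0.51 (-0.98 to -0.04, edgeR adjusted p = 0.181). Without 50 MPa hip cap replicate 4, Cry2 was called (-0.72, edgeR adjusted p = 0.0378). Arntl was at 23.2, 24.3 and 24.0 CPM at 50 MPa, below the 26.3 to 38.3 CPM of the control hip caps used. Its log2 fold change in the fit was -0.03 (-0.49 to 0.42). The fitted coefficient of an unstranded library for Arntl was -0.41, and with sequencing run as the only batch term the log2 fold change was -0.31. The median over the 10 members was -0.39, against 0.02 over all genes tested. In hip caps at 5 MPa over control that median was -0.45, against 0.01 over all genes tested.

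**Figure D5:**
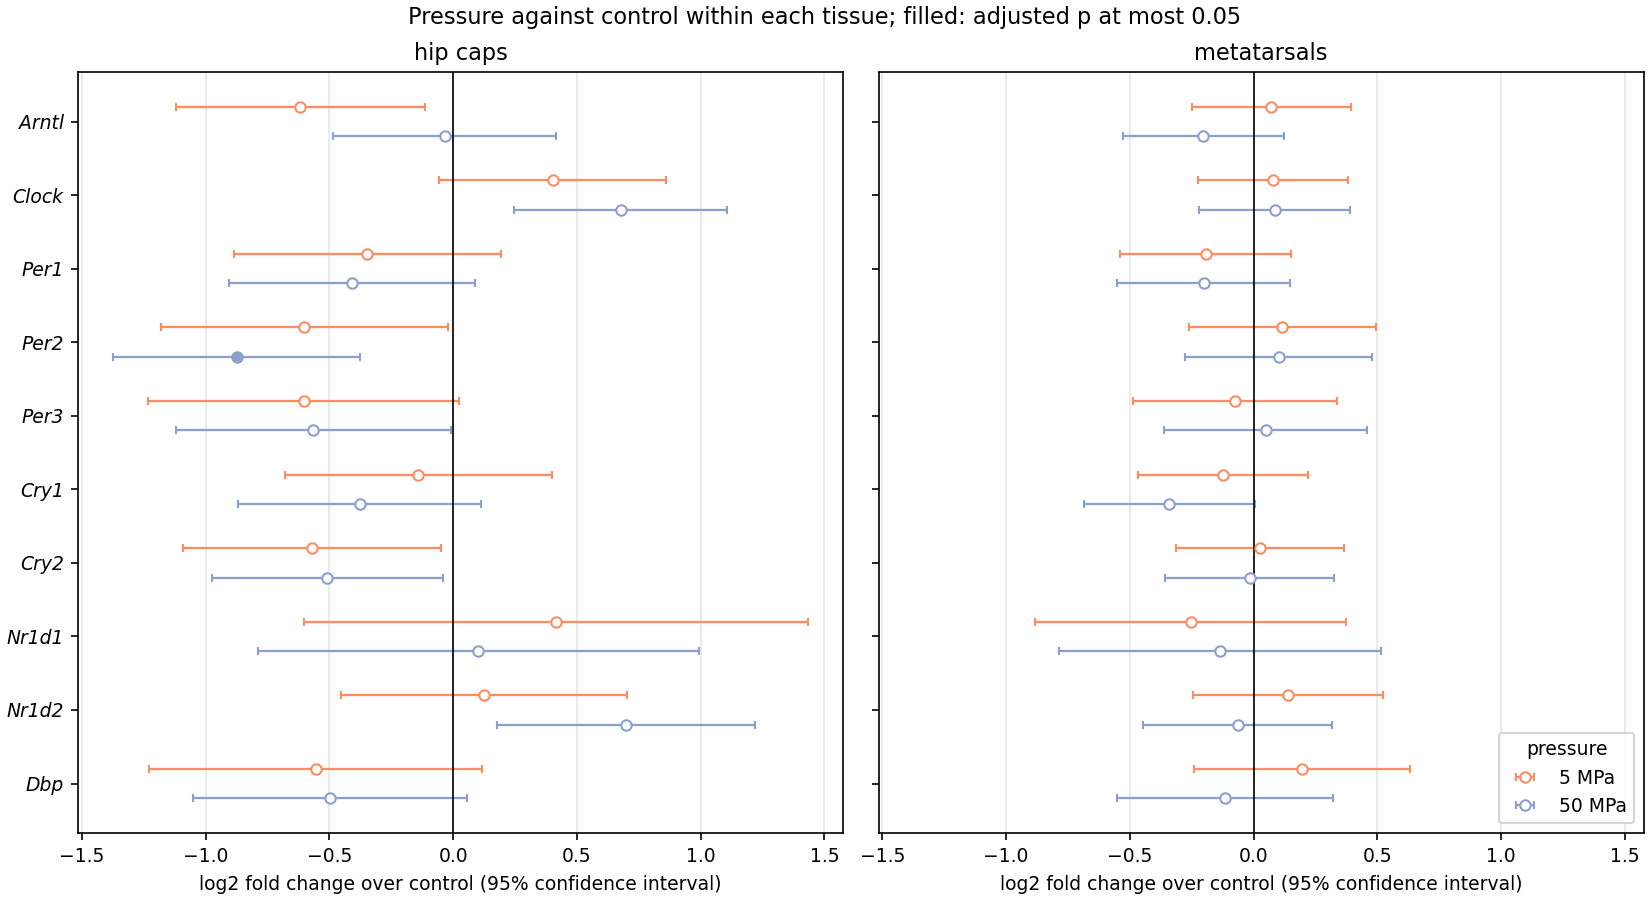
Log2 fold change of each pressure over control for each clock gene, in hip caps (left) and metatarsals (right), with 95% confidence intervals. The single filled point, past an adjusted p of 0.05, is Per2 in hip caps at 50 MPa (-0.87). Intervals are wider in hip caps, where Nr1d1 at 5 MPa runs from -0.60 to 1.44.

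The 2 pressures were not told apart by any member in either tissue. No gene at all was called for 50 against 5 MPa in hip caps or in metatarsals (0% in both). By edgeR 1 member, Arntl in hip caps, had an unadjusted p under 0.05, against 4.78% of all genes (log2 fold change 0.58, 95% interval 0.04 to 1.13, adjusted p = 0.980), and DESeq2 called none. The test of whether the tissues responded differently called no member at 5 MPa (0.0188% of all genes called) or at 50 MPa (0.132%) by edgeR. At an unadjusted p under 0.05 stood 4 members at 5 MPa, against 11.2% of all genes, and 3 at 50 MPa, against 18.3%. DESeq2 called 0 at 5 MPa and 1, Per2 (adjusted p = 0.0350), at 50 MPa, where it called 7.11% of all genes. Its shares for the other comparisons of this paragraph are not given here.

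Members were last compared with each other across libraries, after the mean of each group was subtracted from the log2 CPM, as a description. Over the 10 hip caps used the median Pearson correlation of the 45 pairs was 0.30, and 37 pairs were positive. The closest pairs were Cry2 with Dbp (r = 0.90) and Per1 with Nr1d1 (r = 0.90). With both left-out libraries added, all 45 pairs were positive and the median was 0.69. Both genes of a pair are read from the same libraries, so they share the depth, RNA quality and pooling of each library. The left-out libraries were low in most members.

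Over the 12 metatarsals the median of the 45 pairs was -0.00441 and 22 were positive. Clock and Nr1d2 went together (r = 0.85) and Clock and Nr1d1 went apart (r = -0.73), but with run and library type also removed these became 0.15 and 0.03. Arntl and Nr1d1, the activator and the repressor that turns it off, gave r = 0.27 in hip caps and -0.15 in metatarsals, and 0.34 and 0.76 with run and library type removed. In metatarsals those terms take up the only unstranded library and the only stranded library of run 1 entirely, so the second value rests on 10 libraries.

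Of the genes with a mean of at least 5 CPM, those most like Nr1d1 in hip caps were Lgr6 (r = 0.97), Slc39a8 (r = 0.96) and Pcgf2 (r = 0.95), among 10758 genes ranked over 10 libraries, where Per1 ranked 18. In metatarsals they were Gtpbp1 (r = 0.96), Fam129b (r = 0.95) and Stard3 (r = 0.94), among 10764 genes over 12 libraries. Those most like Arntl were Ntrk2 (r = 0.97), Tshz2 (r = 0.96) and Zfp110 (r = 0.96) in hip caps and Cdh6 (r = 0.92), Rnf150 (r = 0.92) and 9430038I01Rik (r = 0.91) in metatarsals. No member was among the 3 most like either gene in either tissue.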

How the data were processed

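Per the labels and the methods of the study, total RNA of pooled explants was depleted of ribosomal RNA and sequenced. The authors trimmed reads with Trim Galore 0.6.5, quantified them with kallisto and summarised them per gene with tximport. Submitters' processing notes name GRCm39, and no version of kallisto is given in the sources used here. The deposited values are estimated counts per gene with no normalization, and were rounded here. Library type is from the labels. Sequencing run was read from the colour strip of a clustering figure of the study and is less certain: the sizes of the groups so read differ from the numbers of libraries the methods give for each sequencing kit, so some assignments, and the run term with them, may be wrong. Each hip cap library is from a different mouse, per the methods. Metatarsal pools are not stated to be from separate litters or cultures, so their spread may be technical.

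Counts of 22 libraries (HC4 and H502, which the study left out, were not used) were fitted with edgeR 4.0.16 in R 4.3.3: TMM factors, filterByExpr, and a quasi-likelihood test on group, run and library type, with Benjamini-Hochberg adjustment over 21283 genes. CPM and log2 CPM (prior count 2) used TMM factors of all 24 libraries. Intervals are 95%. DESeq2 1.42.0, other scalings, filters, terms and libraries were alternatives. The code was tested on simulated data. The members and all gene lists were chosen with earlier results of these data known. Named were the 10 members, the 4 largest called and 2 largest uncalled other clock genes in controls (1 gene of that list is not reported here), and the 3 genes most correlated with Nr1d1 and Arntl. Overlaps of exons and transcript lengths are from GENCODE (GRCm38), and promoter windows from RefSeq (GRCm38.p6). Whether kallisto was run with a strand setting is not given in the sources used here.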

Additional observations from a re-analysis of the deposited data

Results flagged for a closer look

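In each of the 60 combinations of a member and a group of 4 libraries, the highest and the lowest log2 CPM were set against the other 3, with all 24 libraries. A library far from the others of its group was found in 6, where chance gives about 1 in 20. Among hip caps, 50 MPa replicate 2, left out by the study, was lowest for Arntl (3.98, the others 4.55 to 4.61) and for Clock (5.17, the others 6.04 to 6.18). Hip cap 5 MPa replicate 3 was lowest for Clock (5.94, the others 6.35 to 6.42), and control hip cap replicate 3, the unstranded one, was highest for Cry1 (3.92, the others 3.14 to 3.23). Among metatarsals, 5 MPa replicate 3 was lowest for Cry2 (4.96, the others 5.01 to 5.03), and 50 MPa replicate 4, the unstranded one, was lowest for Nr1d2 (3.81, the others 4.41 to 4.45). In the edgeR fit of 22 libraries no member differed between the tissues in its response to pressure at an adjusted p of 0.05 or less, while DESeq2 called Per2 at 50 MPa.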

How the results depend on the processing

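With library sizes in place of TMM factors, the difference between tissues of the median gene moved, on the log2 scale, by -0.89 in controls, -0.62 at 5 MPa and -0.90 at 50 MPa. Members called higher and lower then numbered 2 and 3, 3 and 3, and 2 and 2, against 7 and 0, 6 and 1, and 5 and 0. For most settings of this section the share of all genes called is not given here, so these counts have no background beside them. Cry2 and Per1 turned to -0.23 and -0.73 in controls and -0.54 and -0.61 at 5 MPa. Nr1d1 and Dbp were called higher in all 3 comparisons under that scaling too. For Per2 and the other calls in hip caps at 50 MPa over control, DESeq2 and a minimum of 10 counts in every library each called 2 members, while library sizes alone, all 24 libraries, library type alone and hip caps fitted alone each called 0. DESeq2 called 1 member for the difference in response at 50 MPa. Leaving out 1 library gave 1 to 6 members for hip caps over metatarsals at 50 MPa, 0 to 2 for hip caps at 50 MPa over control, and 0 to 2 for the difference in response at 50 MPa. The count for hip caps over metatarsals stayed at 6 or 7 in controls and 6 to 8 at 5 MPa when 1 library was left out. With the replicate block the counts were 7, 7 and 5 between tissues and 1 for hip caps at 50 MPa. After group, run and library type were removed, same-numbered libraries of different groups correlated from -0.37 to 0.35 (median 0.014). Those with other numbers correlated from -1 to 1 (median -0.006). The ends of that range are set by the fit. Its batch terms tie together what is left of control metatarsal replicate 1, 50 MPa metatarsal replicate 4 and control hip cap replicate 3. Of 22 libraries, 9 correlated best with their own number. Whether replicate numbers pair libraries is not settled by these values. Over 3620 log2 fold changes of members under the alternatives, 251 that were not called changed sign. Depth limited Nr1d1 in metatarsals, at 12 to 110 counts, and hip caps had the larger common dispersion (0.114 against 0.0349).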
